A study of Bos taurus with 8 samples.

Results

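The 10 naive pluripotency factors described here were taken by name from the counts of bovine embryonic stem cells (bESCs) moved from feeder cells to vitronectin in low oxygen: ESRRB, KLF2, KLF4, KLF5, KLF17, TFCP2L1, TBX3, PRDM14, ZFP42 and NR5A2. They are 10 of the 32640 genes in the count table, and all 10 were found by symbol. Lines A, C, D and E, all XX, were each sequenced on irradiated mouse embryonic fibroblasts (MEF), which serve as feeders, and again in feeder-free conditions on vitronectin (VTN), so that each condition had 4 libraries. The lines had been derived on MEF in normoxia from early or full blastocysts, and the records do not say which line came from which stage. All libraries are from cells adapted to low oxygen over 5 passages on MEF and kept in 5% O2. The medium held FGF2 and the tankyrase inhibitor IWR-1. Passage (15 to 17 on MEF, 20 to 22 without feeders), matrix and the presence of feeder cells changed together and cannot be told apart. The study's methods add Activin A for feeder-free culture, whereas the library titles carry one medium code for both conditions.

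Pluripotent cells occupy a range of states. Naive cells resemble the epiblast of the blastocyst before implantation, and primed cells, the state in which bESCs are usually placed, resemble the epiblast just before gastrulation. In the mouse, the naive state rests on a network of transcription factors that is fed by LIF through STAT3 and by release of TCF7L1 repression when GSK3 is inhibited, and that is opposed by FGF and ERK signalling. ESRRB, an orphan nuclear receptor, is a main output of the GSK3 and TCF7L1 branch, while KLF4 and TFCP2L1 respond to LIF and STAT3. KLF2 and KLF5 are zinc finger factors with overlapping targets, and KLF17 is associated with human naive cells. TBX3 is a T-box repressor, PRDM14 represses FGF receptor signalling and is also required in primordial germ cells, ZFP42 (REX1) is a widely used marker of the naive state, and NR5A2 is a nuclear receptor that binds regulatory DNA of POU5F1.

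Levels are given as CPM, the count of a gene relative to the TMM-scaled size of its library, which allows a gene to be compared between libraries but not with another gene, since the lengths of the counted transcripts were not used here. Total counts were 44268717 to 54296425 on MEF and 49671478 to 102351560 in feeder-free conditions, where the feeder-free library of line D alone exceeded 51320214. Counts below 50 were even numbers in 64.8 to 73.5 percent of genes in every library, against 48.2 to 50.6 percent of genes with at least 1000 counts, and whether the mates of a pair were counted singly is not stated. The core pluripotency genes POU5F1, SOX2 and NANOG had at least 87528, 16839 and 10079 counts in every library. POU5F1 averaged 2048 CPM on MEF and 1850 CPM in feeder-free conditions, SOX2 432 and 339 CPM, and NANOG 262 and 213 CPM. DPPA4, also listed as a core gene, had 2 to 22 counts. The trophectoderm factor CDX2 and the germ cell gene DAZL were at 0 counts in all 8 libraries, and the mesoderm factor TBXT had 0 to 12 counts. Other genes listed for these lineages were present. KRT8 averaged 716 CPM on MEF and 1317 CPM without feeders, EOMES had 34 to 975 counts and DND1 had 150 to 867.

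Across the 10 factors, ESRRB fell, while KLF5, KLF4 and ZFP42 had higher mean levels in feeder-free bESCs, and PRDM14, the factor with the most counts, was higher in 4 of 4 lines by less than the fold change threshold on average. KLF2, TFCP2L1 and NR5A2 showed no common direction among the lines. KLF17 and TBX3 had too few counts to enter the test. With condition as the only term, edgeR's quasi-likelihood test with Benjamini-Hochberg adjustment over 15744 genes called 1 of the 8 tested factors lower (ESRRB) and 0 higher. A call required both a fold change of at least 1.5 and an adjusted P-value under 0.05. Of all genes tested, 1.73 percent were called by this rule, 0.724 percent as higher and 1.00 percent as lower. Unadjusted, 4 of the 8 factors (ESRRB, KLF4, KLF5 and ZFP42) had a P-value under 0.05, against 21.6 percent of all genes tested. In a second fit, with the cell line added to pair the libraries (replicate block), ESRRB was again called lower, and KLF4, KLF5 and ZFP42 were called higher, which made 3 higher and 1 lower. That fit called 5.52 percent of all genes higher and 4.53 percent lower. The median log2 fold change was 0.37 over the 8 factors and 0.01 over all genes tested. Above 0 were 7 of the 8 factors, against 7960 of the 15744 genes tested. Of these 7, KLF2 and TFCP2L1 were higher in 2 of 4 lines only, and NR5A2 in 1 of 4.

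**Figure D1:**
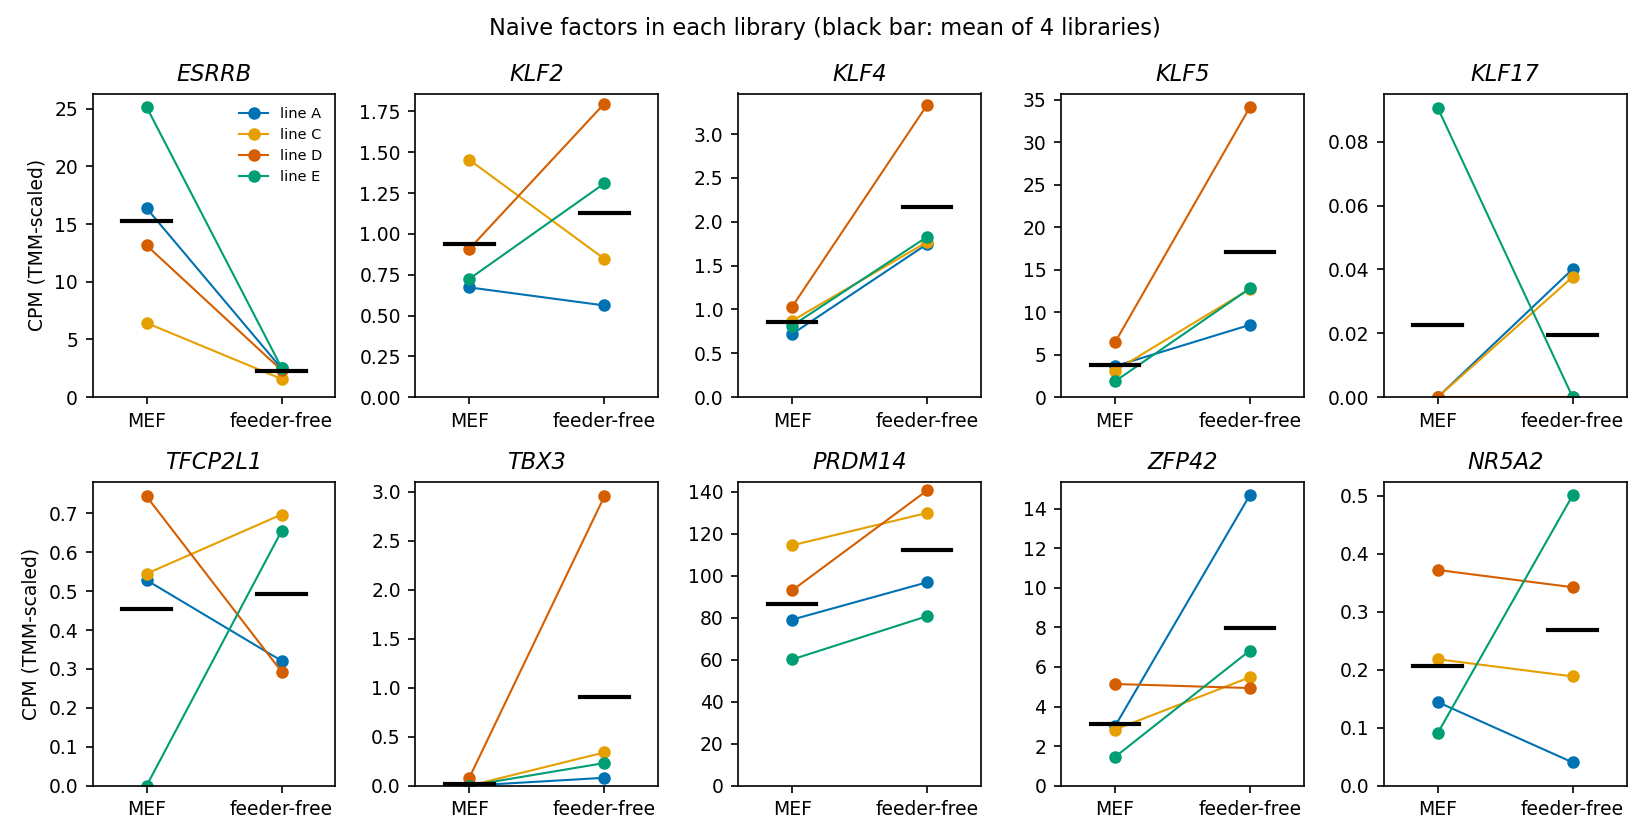
Level of each of the 10 naive factors in CPM (vertical axis, linear from 0, with its own scale in each panel) on MEF and in feeder-free conditions, with points of 1 line joined and a black bar at the mean of 4 libraries. ESRRB falls in 4 of 4 lines to between 1.58 and 2.56 CPM, KLF4 and KLF5 are higher without feeders in 4 of 4 lines, and line D lies highest in feeder-free conditions for KLF2, KLF4, KLF5, TBX3 and PRDM14.

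ESRRB spans 87626899 to 87810135 of chromosome 10 (build ARS-UCD2.0), and no other annotated gene overlaps it. On MEF it had 16.4 CPM in line A, 6.43 in line C, 13.15 in line D and 25.1 in line E, from 354 to 1110 counts. In feeder-free conditions it had 2.49 CPM in line A, 1.58 in line C, 2.34 in line D and 2.56 in line E, from 84 to 239 counts. The lowest MEF library lay well above the highest feeder-free library, so the conditions did not overlap. The log2 fold change was -2.77 (standard error 0.39, 95% interval -3.65 to -1.89), a level 6.81 times lower, with an adjusted p of 0.0331 from edgeR's quasi-likelihood test. Only 13 of the 15744 tested genes had a more negative log2 fold change. In bulk RNA, fewer cells that express the gene and less RNA per cell cannot be told apart.

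The lines differed more in ESRRB on MEF than after the transition. On MEF the highest line had 3.91 times the level of the lowest, and in feeder-free conditions 1.62 times. The order of the lines was the same in both conditions, E above A above D above C. The log2 ratio of feeder-free over MEF was -3.28 in line E, -2.70 in line A, -2.48 in line D and -2.0 in line C, so it followed the order of the MEF level, which is itself part of the ratio. None of the other factors tested had the same order of lines in both conditions.

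With condition as the only term, the call on ESRRB rested on nearly all libraries being present, although its fold change moved little. With each library left out in turn, the log2 fold change stayed between -3.02 and -2.42. The adjusted p from edgeR was 0.0386 without the MEF library of line C and 0.0317 without line A in feeder-free conditions, and both kept the call. It rose to 0.0776, 0.0675 and 0.0775 without the MEF library of line A, D or E, and to 0.0703, 0.0918 and 0.116 without line C, D or E in feeder-free conditions. In those 6 fits, at most 6 genes in the whole table were called. Without both libraries of a line the adjusted p of ESRRB was 0.0741 to 0.217 from edgeR. In the paired fit the log2 fold change was -2.64 (adjusted p = 0.000346 from edgeR), and ESRRB stayed called lower with any 1 line removed, with adjusted p of 0.000524 to 0.00366 from the same edgeR test.

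Feeder cells were present on MEF only, so genes of fibroblasts were set beside ESRRB. The feeders are mouse cells, reads were aligned to the bovine genome, and the study's methods remove what feeders alone gave there. Of 26 fibroblast markers, 24 were tested. In feeder-free conditions 1 was called higher (TAGLN, an actin-binding protein of smooth muscle and fibroblasts) and 0 lower (4 higher and 2 lower with lines paired). Their summed level was 1941 to 2502 CPM on MEF and 1548 to 6102 CPM without feeders (p = 0.257, exact two-sided permutation over the 8 libraries, unpaired). TAGLN, VIM, SPARC and COL1A1 averaged 1057, 826, 623 and 507 CPM in feeder-free conditions, so this sum does not measure feeder RNA. COL1A2, PRRX1 and NR2F2, picked after their values were seen because most feeder-free libraries had few counts of them, differed among the MEF libraries, and NR2F2 is not one of the 26 markers. COL1A2 had 4.59 CPM in line C and 4.65 in line D on MEF, against 0.912 in line A and 0.680 in line E, and at most 0.414 CPM in any feeder-free library. NR2F2 had 3.27 and 4.05 CPM in lines C and D on MEF, against 0.576 and 0.385 in lines A and E, and PRRX1 had 2.56 and 2.62 CPM in lines C and D against 1.15 and 1.02. Other markers did not have this order: COL1A1 had 292, 383, 366 and 370 CPM on MEF in lines A, C, D and E, and DCN had 5.67, 10.3, 5.33 and 8.02 CPM. COL3A1, POSTN, ACTA2 and TAGLN were called higher without feeders when paired, and COL1A2 and PRRX1 lower. The part of feeder RNA in the ESRRB level was not tested.

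**Figure D2:**
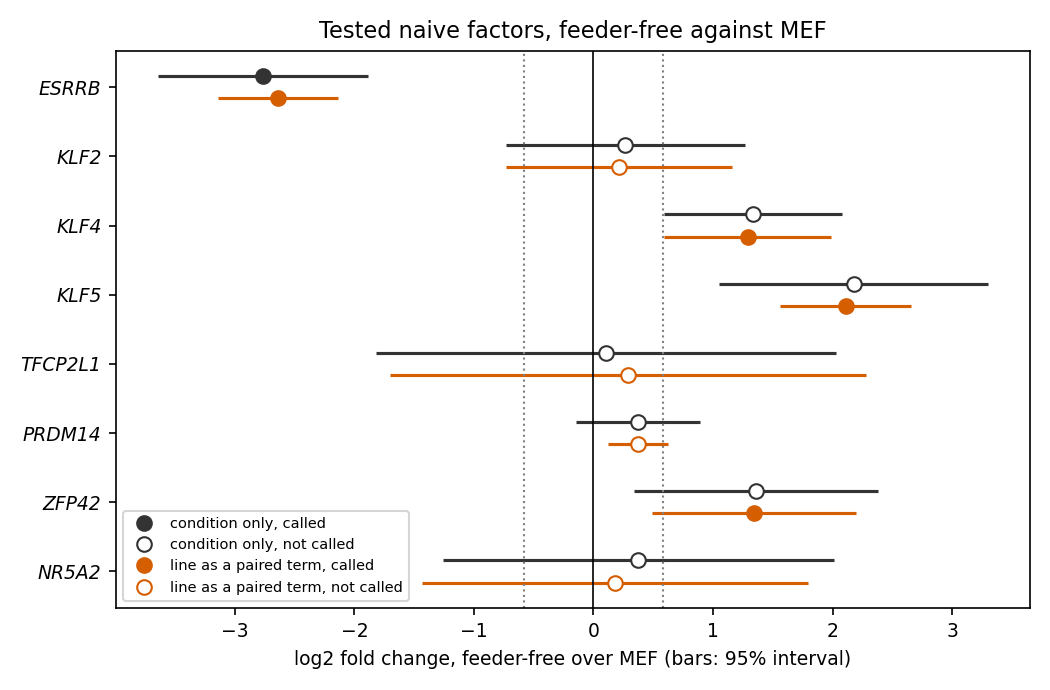
Log2 fold change of the 8 tested factors, feeder-free over MEF (horizontal axis), with 95% intervals, from the fit on condition alone (black) and with cell line as a paired term (orange). Filled points passed both thresholds, dotted lines mark a fold change of 1.5, and only ESRRB is filled in both fits, at -2.77 and -2.64.

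The Krüppel-like factors KLF4 and KLF5 had higher levels in feeder-free bESCs in 4 of 4 lines. KLF4 lies on chromosome 8 from 97174495 to 97179299. It had 0.720 CPM in line A, 0.872 in line C, 1.03 in line D and 0.815 in line E on MEF, and 1.75, 1.77, 3.33 and 1.83 CPM in the same lines without feeders. These levels rest on only 30 to 50 counts on MEF, all of them even numbers, and on 87 to 341 counts without feeders. The conditions did not overlap, and the feeder-free library of line D stood above the other 3. The log2 fold change was 1.33 (95% interval 0.59 to 2.08), with an adjusted p of 0.0633 from edgeR's quasi-likelihood test, short of the threshold. In the paired fit it was 1.29 (adjusted p = 0.0240 from edgeR) and was called higher. That paired call was lost without line C (adjusted p = 0.0687 from edgeR) or line D (0.153), while the log2 fold change was 1.39 and 1.15.

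KLF5, a factor of the inner cell mass and of trophectoderm and other epithelia, showed the larger difference. The gene lies on chromosome 12 from 47795482 to 47818776. On MEF it had 3.65 CPM in line A, 3.12 in line C, 6.44 in line D and 1.86 in line E, and in feeder-free conditions 8.51, 12.7, 34.1 and 12.8 CPM, again with no overlap. Its log2 fold change was 2.18 (standard error 0.50, 95% interval 1.05 to 3.30), or 4.52 times, and 106 tested genes had a higher one. The adjusted p was 0.0560 from edgeR's quasi-likelihood test, just past the threshold. It was 0.0418 without line A in feeder-free conditions, where KLF5 was called higher, and 0.0821 to 0.135 without any one of the other libraries. Pairing the lines, KLF5 was called higher at a log2 fold change of 2.11 (edgeR, adjusted p = 0.00151), and it stayed called with any 1 line removed, with log2 fold changes of 1.91 to 2.39. Over the 8 libraries the log2 CPM of KLF4 and KLF5 correlated at a Pearson's r of 0.949, given as a description, since both differed between the conditions.

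Of the tested factors, KLF4 and KLF5 were the 2 whose libraries did not overlap with feeder-free higher, and ESRRB the one with feeder-free lower. Over all genes tested, 6.21 percent did not overlap with feeder-free higher and 8.36 percent with feeder-free lower. KLF4, KLF5 and PRDM14 were higher in all 4 lines, as were 20.2 percent of all genes tested, and ESRRB was lower in all 4, as were 20.7 percent.

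KLF2, a zinc finger factor close to KLF4, had no common direction. Its levels on MEF were 0.672 CPM in line A, 1.45 in line C, 0.909 in line D and 0.725 in line E, and in feeder-free conditions 0.562, 0.848, 1.80 and 1.31 CPM, so it was higher in lines D and E and lower in A and C. Its counts were low, at 28 to 80 on MEF and 28 to 184 without feeders. The log2 fold change was 0.27 (95% interval -0.73 to 1.27, adjusted p = 0.788 from edgeR), an interval that holds a change of 1.5 times either way. KLF17 was close to absent, with 0 to 4 counts in every library, and it shares its span on chromosome 3 with 4 other annotated genes, SLC6A9 among them.

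ZFP42 and PRDM14 were both higher on average without feeders, the first unevenly and the second evenly across lines. ZFP42, on chromosome 27 from 17564552 to 17566118, had 3.00 CPM in line A, 2.83 in line C, 5.14 in line D and 1.45 in line E on MEF. Without feeders it had 14.7, 5.48, 4.94 and 6.83 CPM in the same lines, so line A differed most and line D was level. The conditions overlapped, and the log2 fold change of 1.36 (95% interval 0.34 to 2.38) had an adjusted p of 0.126 from edgeR's quasi-likelihood test. With lines paired, ZFP42 was called higher at 1.34 (95% interval 0.49 to 2.20, adjusted p = 0.0412 from edgeR). That call was lost without line A (adjusted p = 0.134 from edgeR), line C (0.0815) or line E (0.133), and without line D the log2 fold change was 1.82.

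PRDM14, on chromosome 14 from 33786654 to 33805075, had between 2652 and 14379 counts per library. It had 79.0 CPM in line A, 114 in line C, 93.0 in line D and 60.1 in line E on MEF, and 96.8, 130, 140 and 80.7 CPM in feeder-free conditions. Every line was higher without feeders, but the lines differed among themselves by more than the transition moved any of them. The log2 fold change was 0.37 (95% interval -0.15 to 0.89, adjusted p = 0.401 from edgeR). Paired by line, it was 0.37 with a narrower interval of 0.13 to 0.62 (adjusted p = 0.0481 from edgeR), under the fold change threshold. The log2 ratios of the 4 lines ran from 0.18 to 0.60, and their SD of 0.179 compares with a median of 0.330 over all genes tested.

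**Figure D3:**
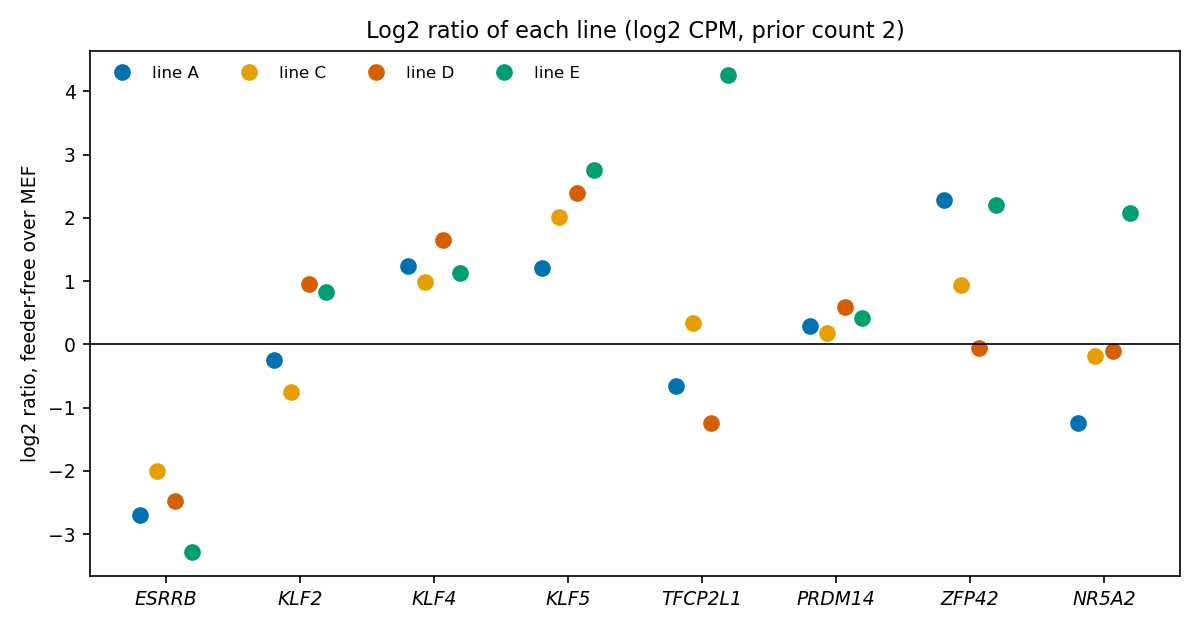
Log2 ratio of feeder-free over MEF (vertical axis) for each tested factor, 1 point per line, from log2 CPM with a prior count of 2. ESRRB lies below 0 in all 4 lines, KLF4, KLF5 and PRDM14 above 0 in all 4, and the lines spread most for TFCP2L1, whose MEF library of line E had 0 counts.

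TFCP2L1, NR5A2 and TBX3 had few counts in most libraries. TFCP2L1, a grainyhead-like factor downstream of LIF and STAT3, had 22, 30 and 36 counts in lines A, C and D on MEF and 0 in line E, and 16 to 37 counts in feeder-free libraries. Its log2 fold change was 0.10 with an interval of -1.82 to 2.03, and without the MEF library of line E it was -0.31. NR5A2 had 4 to 18 counts on MEF and 2 to 35 in feeder-free conditions, overlaps 1 other annotated gene, and had a log2 fold change of 0.38 (95% interval -1.26 to 2.01). Both intervals hold a change of 1.5 times in either direction. The SD of the log2 ratio over the 4 lines was 2.48 for TFCP2L1 and 1.4 for NR5A2, against a median of 0.330 over all genes tested.

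TBX3 was at 0 counts in lines A, C and E on MEF and at 4 in line D. Without feeders it had 4 counts in line A, 18 in line C, 12 in line E and 302 in line D, or 0.0803, 0.339, 0.231 and 2.95 CPM. Line D, the only line with TBX3 counts on MEF, also had the most without feeders, but 4 MEF counts are too few to compare the lines there. TBX3 was not among the genes tested, and in a fit without a filter on low counts it had an adjusted p of 0.0935 from edgeR's quasi-likelihood test. No fold is given, since the MEF level rests on 4 counts in 1 library.

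The feeder-free library of line D held the highest feeder-free level of KLF2, KLF4, KLF5, PRDM14 and TBX3. It was the highest feeder-free library for 4 of the 8 factors tested, against 28.5 percent of all genes tested. For KLF5 it lay 2.66 times above the next feeder-free library, and 1.43 percent of all genes had a gap of more than 1 on the log2 scale there. The same library had the highest summed fibroblast markers, 6102 CPM against 1548 to 4144 CPM in the other feeder-free libraries. It also had the highest summed trophectoderm markers, 3397 CPM against 1009 to 2862 CPM, and the highest summed immediate early genes, 1016 CPM against 564 to 922 CPM. Being highest was not particular to these lists. The same library led in hypoblast markers (865.6 CPM against at most 795.2), primitive streak and mesoderm markers (15.42 against at most 13.34) and the pluripotent core (3624 against at most 3598). It did not lead in germ cell markers, at 29.95 CPM against 42.8 CPM in line E. The trophectoderm sum came mainly from keratins, and GATA3, a defining factor, had 0.160 to 3.16 CPM in feeder-free libraries with line C highest. Without line D in feeder-free conditions the log2 fold change was 1.05 for KLF4 and 1.59 for KLF5, with adjusted p of 0.174 and 0.127 from edgeR. The part of these other genes in the KLF4, KLF5 and TBX3 levels was not tested.

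Relatives of the 10 factors were called in the KLF and SP family alone with condition as the only term, and in more families with lines paired. Among KLF and SP family genes outside the 10, 21 were tested, 0 were called higher and 2 lower, KLF11 at a log2 fold change of -0.63 and SP1 at -0.59, and the median was -0.51. SP1 was 1.501 times lower unpaired, at the fold change threshold, and lost its call when lines were paired (log2 fold change -0.576). Pairing gave 1 higher and 4 lower in this family, the lower ones being KLF8, KLF11, SP7 and SP8. The one higher was KLF7, in 4 of 4 lines, with 1.34 unpaired (adjusted p = 0.0629 from edgeR) and 1.26 paired (adjusted p = 0.00342 from edgeR). The closest relatives of ESRRB, ESRRA and ESRRG, had log2 fold changes of -0.12 and -0.28 with adjusted p of 0.682 and 0.599 from edgeR. Of 8 tested genes among the nuclear receptor relatives, 0 were called, and NR2F2 had the lowest value, -5.29 (adjusted p = 0.0509 from edgeR), on 0 to 8 counts without feeders, and was called lower when paired (-5.14, adjusted p = 0.00844 from edgeR). None of the 3 tested CP2 and grainyhead genes, the 8 T-box genes, the 9 PRDM genes or YY1, the relative of ZFP42, was called, with medians of -0.11, -0.15, -0.25 and -0.20. PRDM1, a regulator of the germ cell fate together with PRDM14, had a log2 fold change of -1.16 (edgeR, adjusted p = 0.0759), was lower in 4 of 4 lines and was called lower in the paired fit. Pairing also called MECOM of the PRDM family and TBX1 of the T-box family lower and EOMES of the T-box family higher.

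Other genes associated with the naive state gave no shared direction. Of 18 such genes, 17 were listed and 11 tested, 0 were called in either direction, and the median log2 fold change was 0.09, with 2 at an unadjusted P-value under 0.05. One of these 2 was NCOA3, a coactivator that binds ESRRB, which had a log2 fold change of -0.58 (edgeR, adjusted p = 0.0331), lower in 4 of 4 lines and just short of the fold change threshold. The other was UTF1, a chromatin-bound factor of pluripotent cells, with a log2 fold change of 0.67 (edgeR, adjusted p = 0.111), higher in 4 of 4 lines. SUSD2, a surface marker of human naive cells, had 1.02 CPM on MEF and 3.83 CPM without feeders (log2 fold change 1.92, adjusted p = 0.313 from edgeR) and was called higher in the paired fit. DPPA2, FGF4, TCL1A, ARGFX and NR0B1 had at most 8 counts in any library.

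Of the 16 genes of the formative and primed states, 15 were tested, 1 was called lower (SOX11, at a log2 fold change of -0.66) and 0 higher, and the median was -0.23. With pairing, OTX2 and POU3F1 joined SOX11 as lower and DUSP6 was called higher. The 7 tested core genes had a median of -0.30, with 6 below 0, 0 called and 5 at an unadjusted P-value under 0.05. Of all genes tested, 21.6 percent had such a P-value. SALL4 was lower in 4 of 4 lines, at a log2 fold change of -0.58 (edgeR, adjusted p = 0.0426). Its level was 1.495 times lower, where a call required 1.5. With lines paired, SALL4, SOX2 and LIN28B had adjusted p of 0.00614, 0.0436 and 0.0456 from edgeR. The other core genes stayed above 0.05 there, and 0 were called. The summed level of the 7 core genes was 4012 to 4509 CPM on MEF and 3496 to 3624 CPM without feeders, with no overlap. An exact two-sided permutation over the 8 libraries gave p = 0.0286, the smallest that 4 against 4 libraries allow. It ignored the pairing by line, and p-values were not adjusted over the 7 summed lists.

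**Figure D4:**
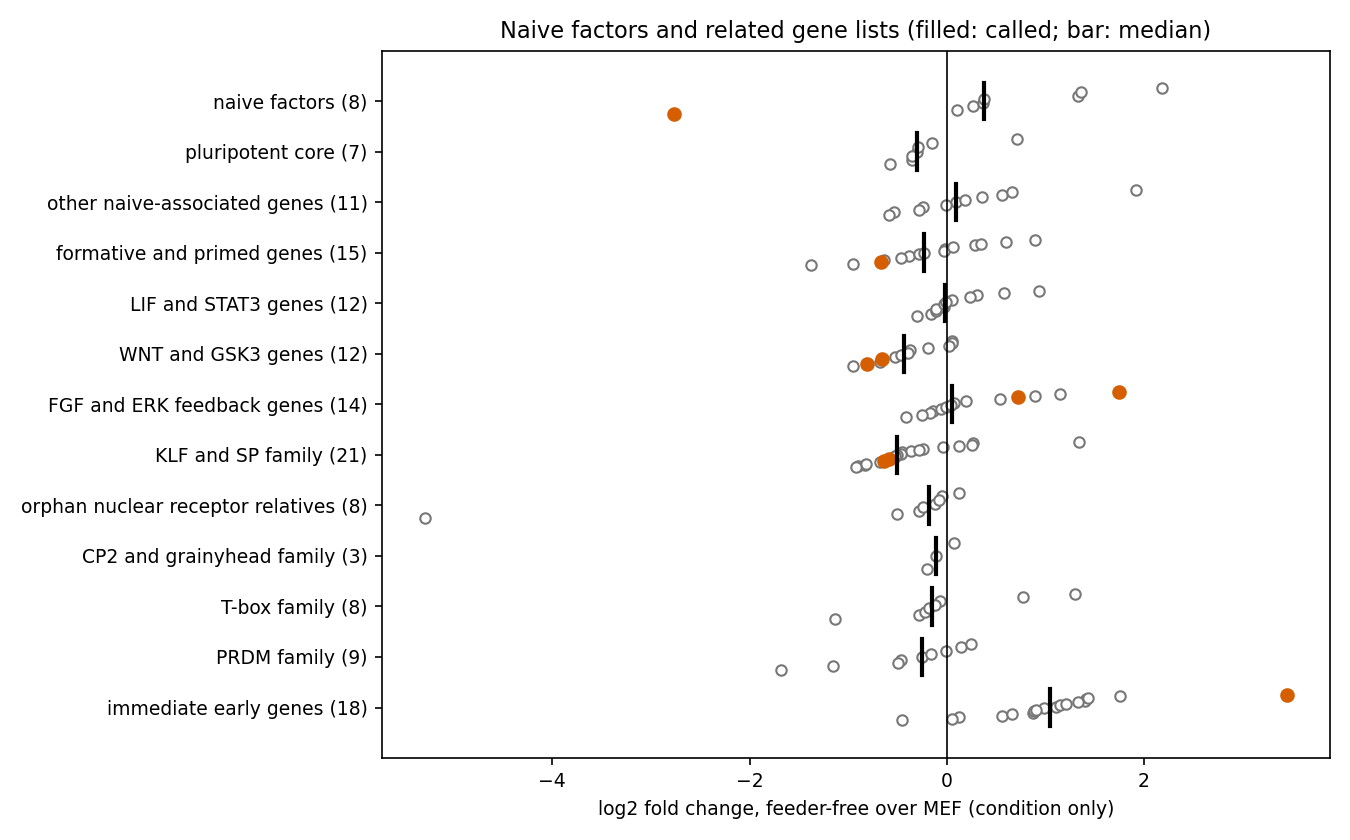
Log2 fold change of each tested gene (horizontal axis, feeder-free over MEF, condition alone) in the naive factors and 12 related lists, with the number tested in brackets. Filled points were called, black bars are medians, and ESRRB is the called gene at -2.77 in the first row.

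Signalling genes that act on the naive network in the mouse were called in 2 of 3 lists. Of 12 WNT and GSK3 genes tested, 2 were called lower and 0 higher, with a median of -0.43. They were GSK3B, the kinase that marks beta-catenin for degradation, at a log2 fold change of -0.65, and TCF7L2, a nuclear partner of beta-catenin, at -0.81, and pairing added TNKS, a target of IWR-1. TCF7L1, the repressor of Esrrb in mouse cells, had 240 CPM on MEF and 173 CPM without feeders, a log2 fold change of -0.47 (edgeR, adjusted p = 0.0834), lower in 4 of 4 lines. None of 12 LIF and STAT3 genes was called, with a median of -0.02. SOCS3, a feedback target of STAT3, had a log2 fold change of 0.94 (edgeR, adjusted p = 0.0888), higher in 4 of 4 lines, and was called higher in the paired fit, as was IL6R. Of 14 FGF and ERK genes, 2 were called higher and 0 lower, with a median of 0.06. They were SPRY4, an inhibitor induced by ERK, at 1.75, and the ETS factor ETV4 at 0.73, and pairing added FGF2 and DUSP6. Of the 18 immediate early genes, 1 was called higher (FOS, at 3.45) and 0 lower, and 10 were called higher with lines paired. Their median was 1.05, 17 had a log2 fold change above 0, and 16 had an unadjusted P-value under 0.05. The gene below 0 was KLF10, at -0.46, which is one of these 16, and KLF6, the other Krüppel-like factor in the list, had 0.12. The summed level was 462 to 560 CPM on MEF and 564 to 1016 CPM without feeders (p = 0.0286, exact two-sided permutation, unpaired and unadjusted).

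Genes of other lineages in which these factors also act were low in part, while the keratin KRT8 averaged 716 CPM on MEF and 1317 CPM without feeders. Of 8 tested germ cell genes, which include PRDM14 and TFCP2L1, 0 were called, and NANOS3 had 4 to 50 counts per library. Of 7 tested hypoblast genes, 1 was called higher (APOA1, at 1.53) and 0 lower, while GATA4 had at most 2 counts and GATA6 at most 36. Of 5 tested genes of the primitive streak and mesoderm, 0 were called, and EOMES, also a trophectoderm factor, had a log2 fold change of 1.30 (edgeR, adjusted p = 0.211), higher in 4 of 4 lines, and was called higher when paired (1.61, adjusted p = 0.0307 from edgeR). The summed level of this list was 5.82 to 9.83 CPM on MEF and 10.09 to 15.4 CPM without feeders (p = 0.0286, exact two-sided permutation, unpaired and unadjusted). Most of that difference came from EOMES, which averaged 3.145 CPM on MEF and 7.746 CPM without feeders. GSC averaged 1.731 and 1.761 CPM and TBX6 1.783 and 1.705 CPM, so the list did not rise as a whole. The summed levels of the trophectoderm, hypoblast and germ cell lists overlapped between conditions, with p of 0.114, 0.171 and 0.686 by the same exact permutation. Of 11 tested trophectoderm genes, 1 was called higher (PTGS2, at 2.43) and 0 lower, with a median of 0.88. With lines paired, 6 were called higher (KRT7, KRT8, KRT18, TEAD4, EOMES and PTGS2) and 1 lower (GATA2).

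The genes most like ESRRB over the 8 libraries, by Pearson's r of log2 CPM and leaving out the 10 factors, were PHACTR4 (0.986), MSL2 (0.986), SOX4 (0.983), SPIN1 (0.978) and CIPC (0.975). All 5 were lower without feeders, at log2 fold changes of -0.25 to -1.73, and MSL2, SOX4 and SPIN1 were called. SOX4 had 59.4 CPM on MEF and 17.8 CPM in feeder-free conditions. The genes most like KLF4 were SLC16A7 (0.990), FGFR4 (0.989), TNFRSF11B (0.986), CNPY3 (0.983) and PARP3 (0.980), all with log2 fold changes above 0. These values describe 8 libraries that share the difference between conditions, and 1.35 percent of the other tested genes had an r above 0.9 with ESRRB and 1.61 percent with KLF4.

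**Figure D5:**
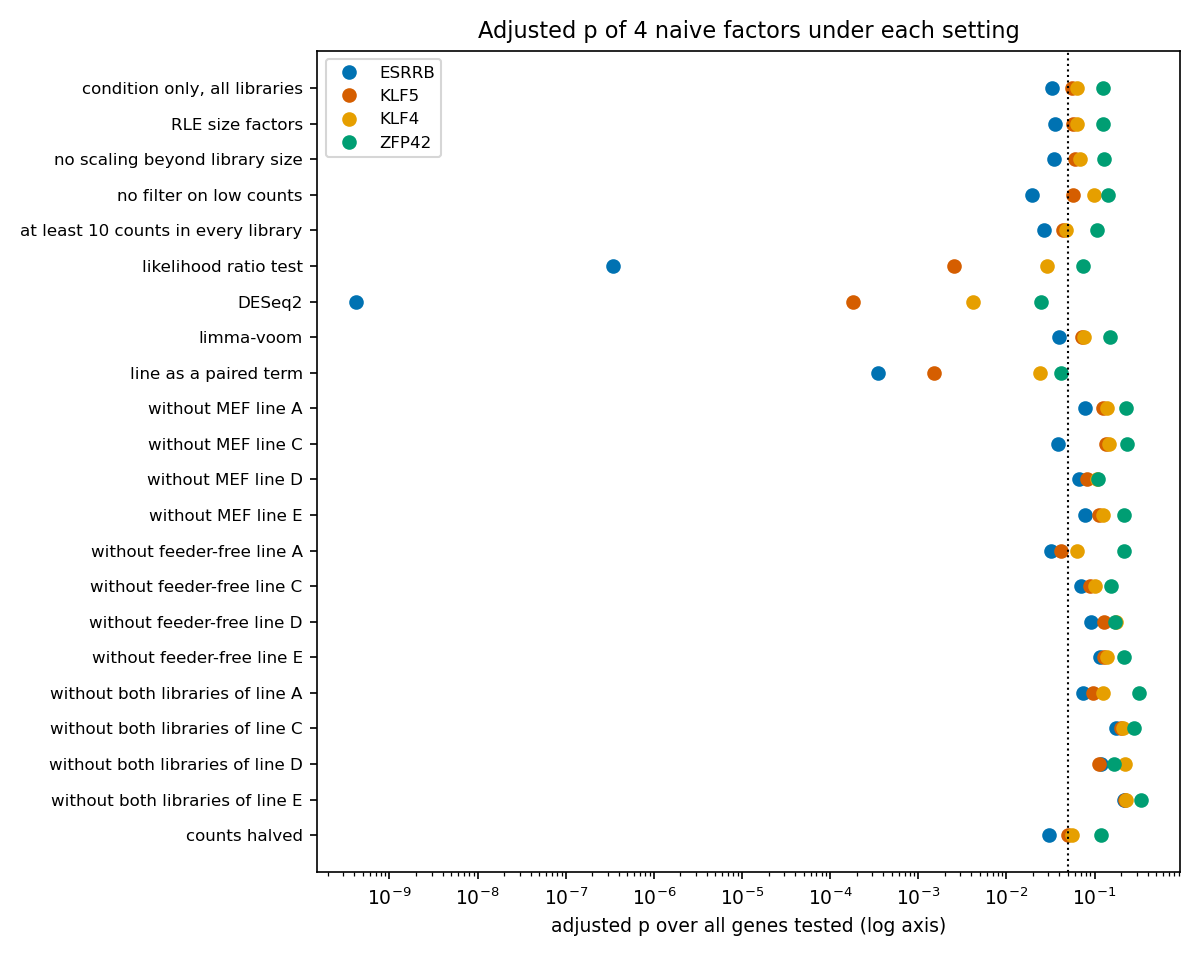
Adjusted p of ESRRB, KLF5, KLF4 and ZFP42 (horizontal log axis, dotted line at 0.05) under each setting of the analysis (rows). With all libraries ESRRB lies below 0.05 in every setting, KLF4 and KLF5 fall below it with at least 10 counts in every library, the likelihood ratio test, DESeq2 and the replicate block, and with 1 library removed most points lie above it.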

How the data were processed

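RNA was sequenced from 4 bESC lines on MEF and in feeder-free conditions in low oxygen. The authors deposited raw counts per gene, made with Trimmomatic (trimming), STAR (alignment to ARS-UCD2.0), Picard (optical duplicates), samtools (a mapping quality filter) and featureCounts (Subread 1.6.2 in the submitters' processing notes). The methods also subtract from the MEF libraries what a sample of feeders alone gave on the bovine genome, and that sample was not analysed here. Whether mates were counted singly, and the strand, are not given in the sources used here. The deposited counts entered the fits unchanged. No value was given for 3 of 32640 genes, and 0 columns were left unused. Names of 30268 genes matched the RefSeq table of ARS-UCD2.0, the source of coordinates.

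Differences were fitted on the whole table with edgeR 4.0.16 in R 4.3.3 (filterByExpr, TMM, glmQLFit and glmQLFTest, condition alone). Log2 CPM used a prior count of 2, and standard errors were derived from the F statistic. The alternatives were RLE factors, no scaling, other filters, the likelihood ratio test, DESeq2 1.42.0, limma-voom (limma 3.58.1), the paired fit, no fold change threshold, and each library left out. Leaving out whole lines and halving the counts were added after the data were seen. Fits were run on counts simulated without differences between lines, so this was no test of pairing in the data at hand. The cell line pairs the libraries: after removal of the mean of each condition, r was 0.421 to 0.664 between libraries of the same line and -0.523 to 0.249 between different lines. All records give one sequencing batch. The 10 factors, the lists and the rule for named genes (all 10 factors, called genes of each list, and the 5 genes most like ESRRB and KLF4) were chosen with earlier results of these data known, and other genes were named after their values were seen. Neither sequences nor transcript lengths were used here, so no order of levels between genes was made.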

Additional observations from a re-analysis of the deposited data

Results flagged for a closer look

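Among 32 groups of 4 libraries examined (8 factors, total counts and 7 summed lists, in both conditions), 3 held a library far from the other 3, where about 1.6 are given by chance. KLF4 had 1.752 log2 CPM in the feeder-free library of line D, where lines A, C and E had 0.833 to 0.898. TFCP2L1 had -4.803 log2 CPM, the value that the prior count gives to 0 counts, in the MEF library of line E, against -0.826 to -0.360 on MEF in the other lines. The total of the feeder-free library of line D was 102400000 counts to 4 digits, against 49670000 to 51320000.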

How the results depend on the processing

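With condition alone, 1 factor was called lower and 0 higher. KLF4 and KLF5 were also called higher with at least 10 counts in every library and with the likelihood ratio test, which made 2 higher. With DESeq2 and with the replicate block (pairing by line), ZFP42 joined them and 3 were called higher. RLE factors, no scaling, no filter, limma-voom, halved counts and no fold change threshold left 1 lower and 0 higher. With a library or a line left out, 0 to 1 were called lower and 0 to 1 higher. In the paired fit with a line left out, 1 to 3 were called higher and ESRRB stayed the one called lower (TBX3, tested there, was called higher without line A). Of all genes, 114 were called higher and 158 lower, against 869 and 713 with the replicate block, 448 and 389 with the likelihood ratio test, 695 and 516 with DESeq2, 199 and 213 with at least 10 counts, 73 and 97 with no filter and 83 and 91 with no scaling, and 0 to 259 and 0 to 231 with 1 library left out. The log2 fold changes of ESRRB, KLF4, KLF5, PRDM14 and ZFP42 kept their direction in all 21 alternatives. Leaving out a library or a line reversed the others: KLF2 ranged from -0.067 to 0.69, TFCP2L1 from -0.47 to 0.64 and NR5A2 from -0.31 to 0.82, and in the paired fit with a line left out from -0.067 to 0.56, -0.55 to 0.99 and -0.49 to 0.58. Settings that leave out libraries or genes differ by that construction, and otherwise the cause was not tested. KLF17 and TBX3 had too few counts for the test.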
